A study of Mus musculus with 6 samples.

Results

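The genes described here are a set of 9 that are named for the 2-cell embryo or for pluripotency and whose mRNA is carried by the oocyte: Tcstv1, Tcstv3, Dppa2, Dppa4, Zfp750, Pou5f1, Sall4, Lin28a and Tcl1. They were taken by symbol from a list that was chosen with earlier results of these data known. All 9 were found among the 53700 gene rows of the count tables. PolyA RNA had been sequenced from mouse GV oocytes (germinal vesicle oocytes, arrested in meiotic prophase) on a C57BL/6N background, in 3 wild-type libraries (labelled Zar +/+) and 3 Zar1 knockout libraries (labelled Zar -/-). Each library was made from a pool of 10 oocytes. ZAR1 binds RNA in oocytes. Storage of mRNA in a compartment at the mitochondria is the subject of the series, and the comparison gives the levels of these mRNAs in oocytes that lack Zar1. The replicates are labelled as biological. The labels do not state the deleted part of Zar1, the age of the animals, or how many animals gave each pool. The p-values therefore measure the spread between these pools.

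A mouse GV oocyte is transcriptionally quiet or about to become so, and its mRNAs must last until the embryonic genome is switched on, which in the mouse happens at the 2-cell stage. DPPA2 and DPPA4 are paired DNA-binding proteins with a SAP domain, known in embryonic stem cells as activators of 2-cell genes, while Tcstv1 and Tcstv3 belong to a gene cluster that is transcribed at the 2-cell stage. POU5F1 (OCT4) and SALL4 are transcription factors of pluripotent cells. LIN28A is an RNA-binding protein that blocks maturation of the let-7 microRNA, TCL1 is a co-activator of the AKT kinases, and ZFP750 is a zinc finger factor best known from epidermal differentiation.

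Sequence decides which reads can be assigned to Tcstv1 and Tcstv3. Over 507 aligned coding bases the pair was 94.5% identical. The ungapped 30 bases of the coding sequence with the most differences, coding bases 428 to 457 in both, are shown 5′ to 3′ with the 7 mismatched bases in capitals.
Tcstv1: gccctgTccGggatcctgTTtctGaCagtT
Tcstv3: gccctgAccAggatcctgCAtctTaTagtG
Of all 50-base stretches in their annotated transcripts, 15.0% of those of Tcstv1 and 31.4% of those of Tcstv3 also occurred in transcripts of another gene, among them each other. The share was 29.1% for Dppa2, 31.3% for Dppa4, 10.1% for Pou5f1, 7.64% for Sall4 and 4.72% for Lin28a. No stretch of Zfp750 or Tcl1 was shared. Multiply aligned reads (13.9% to 15.0% of a library) had been kept out of the gene counts, so the levels of the genes with shared sequence are uncertain.

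Cytoplasmic polyadenylation elements (CPEs, the U-rich 3' UTR sites bound by CPEB1) were searched for as TTTTAT or TTTTAAT on the mRNA strand, since they mark many stored oocyte mRNAs. In the longest annotated coding transcript of each gene, the 3' UTR held 6 such sites in Lin28a (2775 bases), 3 in Sall4 (1697 bases), 3 in Dppa2 (1012 bases), 2 in Zfp750 (831 bases) and 1 in Tcl1 (962 bases). None was found in the 3' UTRs of Tcstv1 (112 bases), Tcstv3 (102 bases), Dppa4 (505 bases) or Pou5f1 (221 bases), all of them shorter than those with a site. The site nearest the 3' end of each is shown with the motif in capitals, from GENCODE M21 transcripts on GRCm38.
Dppa2: ggtcttgagtaTTTTAATttttttaaag
Zfp750: atcaagtcagtTTTTATaaatacaattt
Sall4: tttgtttttgtTTTTAATtacatttttg
Lin28a: tgcctggggtgTTTTATttcctagttga
Tcl1: aatgtgtgggaTTTTATgtggttctatt
The Tcl1 site was the only one within the last 100 bases of a 3' UTR, 59 bases before its end. Of 19732 genes with a 3' UTR of at least that length, 17.8% held a CPE in this window. The translational control sequence TTTGTCT was in no 3' UTR of the 9 genes. A poly(A) signal (AATAAA or ATTAAA) was absent from the annotated 3' UTRs of Tcstv1, Tcstv3, Dppa2 and Dppa4. The other genes each held 1 in the last 100 bases, as did 78.6% of the 19732 genes at least once. Whether these annotated ends are the ones used in the oocyte was not tested, and a CPE beyond them would have been missed.

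Zar1 mRNA was measured first as a check of the labels. It had 15245, 13612 and 12810 counts in wild-type replicates 1, 2 and 3 and 69, 96 and 226 in knockout replicates 1, 2 and 3, between 0.511% and 1.5997% of the wild-type mean level. Each library held 32126555 to 39148833 gene counts. Oocyte markers were abundant throughout, their 12 genes summing to 20827 to 22298 CPM in wild type and 22589 to 24305 in knockout, with 7 higher and 2 lower (CPM is the read count relative to the TMM-scaled library total, TMM being a factor that corrects for composition). Markers of granulosa and cumulus cells summed to 59.6 to 63.8 CPM in wild type and 51.2 to 65.3 in knockout. Of these 15 genes, 1 rose and 1 fell. Theca and stroma markers summed to at most 8.59 CPM and blood and immune markers to at most 2.36 CPM in any library, with Cd3e, Hba-a1 and Hbb-bs at 0 counts in all. Among 9 markers of embryonic stem cells or epiblast, which summed to 192 to 215 CPM in wild type and 158 to 213 in knockout, Utf1 and Fgf4 were at 0. In this list 1 gene rose, Dppa5a, and 1 fell, Esrrb (named after its values were seen). Esrrb was most of the sum in every library, at 154 ± 11.4 CPM in wild type and 103 ± 12.6 CPM in knockout. Beside these counts, 14.9% of all genes tested were higher and 18.5% lower at an edgeR adjusted p of 0.05. The low-count filter left 3 granulosa and cumulus markers and 5 markers of embryonic stem cells or epiblast untested. The part of these marker lists in the results was not tested.

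Loss of Zar1 was accompanied by lower levels of Tcstv1, Tcstv3, Dppa4 and Lin28a and by higher levels of Dppa2 and Zfp750. Pou5f1, Sall4 and Tcl1 did not pass the test. Thus 2 of the 9 genes rose and 4 fell at a Benjamini-Hochberg adjusted p of 0.05 in edgeR's quasi-likelihood test, which ran over 16473 genes. Across all of those genes 33.4% were called, 14.9% higher and 18.5% lower. The 9 genes and the gene lists below were chosen with earlier results known, and each list also holds some of the 9. Their shares called are therefore not independent of these data and cannot show whether a list changed more often than other genes. The groups did not overlap for 8 of the 9, all but Sall4, and for 47.8% of all genes tested. The median log2 fold change was 0.0092 over the 9 and 0.0075 over all genes tested. Levels are relative to the other mRNAs of a library, and with whole oocytes pooled, fewer cells carrying an mRNA and less of it per cell cannot be told apart. Because polyA RNA was sequenced, a change in poly(A) tail length and a change in mRNA amount cannot be told apart either.

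None of the 9 was at the detection limit, taken as fewer than 10 counts in a library. The lowest count of any of them was 75, for Tcstv3 in knockout replicate 2, and all 9 passed the filter on low counts. Pou5f1 had 196 to 279 counts and Dppa4 111 to 408. Sall4 and Tcl1 were measured on at least 36009 counts in every library and held 89.8 ± 0.616% of the reads of the 9 genes in wild type (mean ± SD, n = 3).

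Per kilobase of annotated exon, the wild-type order of levels was Tcl1 (589 ± 42.0 CPM per kilobase), Sall4 (489 ± 38.5), Tcstv1 (61.5 ± 0.906), Zfp750 (56.9 ± 2.45), Lin28a (20.5 ± 0.671), Dppa2 (20.3 ± 0.467), Tcstv3 (15.6 ± 1.84), Dppa4 (6.21 ± 1.12) and Pou5f1 (2.72 ± 0.0968; SD, n = 3 each). Lin28a and Dppa2 could not be ordered, since their 3 values overlapped. The ranges of all other neighbours in this order were apart, by little for Tcstv1 (lowest 60.5) and Zfp750 (highest 59.6). In the knockout, Tcstv1 stood at 8.20 ± 1.00 CPM per kilobase, below Lin28a at 13.0 ± 1.66 and Dppa2 at 31.96 ± 1.61.

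**Figure D1:**
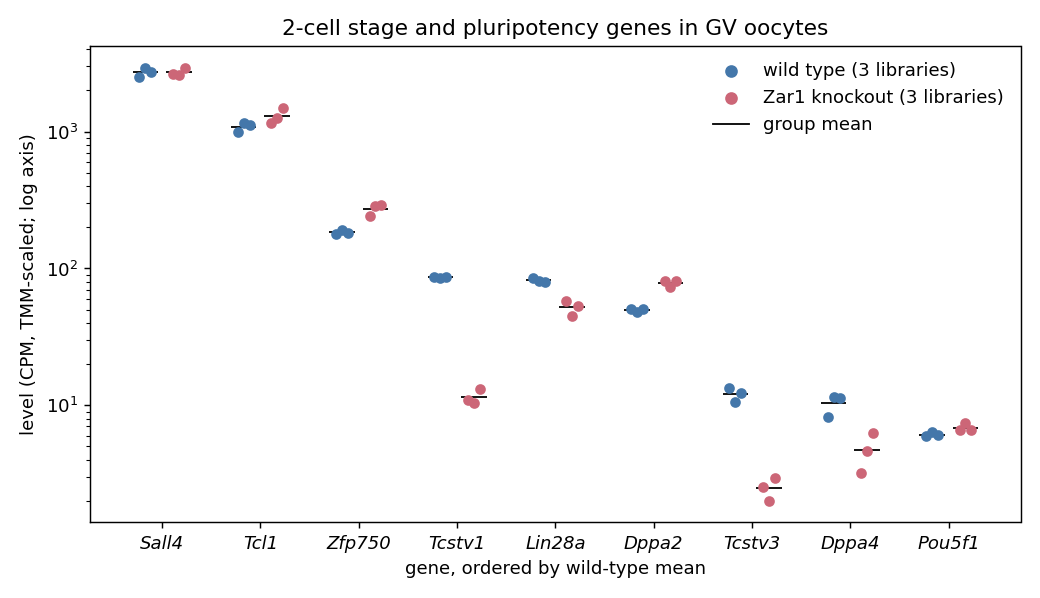
Levels of the 9 genes in CPM (TMM-scaled, log axis) in each of 3 wild-type (blue) and 3 Zar1 knockout (red) libraries, with black lines at the group means and genes ordered by their wild-type mean. Tcstv1, Tcstv3, Dppa4 and Lin28a lie lower in every knockout library, Dppa2 and Zfp750 lie higher, and the Sall4 groups overlap.

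Tcstv1 (ENSMUSG00000096284.3) fell furthest. It stood at 86.6, 84.6 and 86.9 CPM in wild-type replicates 1, 2 and 3 and at 10.97, 10.4 and 13.1 CPM in knockout replicates 1, 2 and 3. The wild-type libraries were nearly equal and all knockout libraries were far below them. The level dropped to 13.3% of wild type (log2 fold change -2.91 ± 0.11 SE, 95% interval -3.16 to -2.66, edgeR adjusted p = 3.3e-06). Among wild-type mRNAs Tcstv1 ranked 2473 of 16473, and among knockout mRNAs 7246. Called falls of more than 4-fold were 2.53% of the genes tested.

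Tcstv3 (ENSMUSG00000095821.3), its near-copy, fell in the same libraries from a lower start. It had 13.5, 10.6 and 12.4 CPM in wild type and 2.52, 2.01 and 2.93 CPM in knockout, with no overlap. The log2 fold change was -2.29 ± 0.20 (95% interval -2.75 to -1.83, edgeR adjusted p = 8.52e-05). Summing the counts of both genes and testing them as 1 gave -2.81 (edgeR adjusted p = 5.34e-06). The count of Tcstv1 over that of Tcstv3 within a library was 6.42, 7.95 and 7.03 in wild type and 4.35, 5.16 and 4.46 in knockout, lower in each knockout library (exact two-sided permutation p = 0.1, the smallest that 3 against 3 libraries allow).

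The genes whose profile over the 6 libraries lay nearest that of Tcstv1, each centred on its wild-type mean on the log2 scale, were Dcp1b, Gm45645 and Elovl7, among 12950 genes with a mean of at least 1 CPM. Dcp1b, a decapping cofactor, went from 5.31 ± 0.595 to 0.642 ± 0.168 CPM. Elovl7, a fatty acid elongase, went from 63.1 ± 8.55 to 8.97 ± 0.434 CPM and the antisense gene Gm45645 from 22.0 ± 2.07 to 2.76 ± 0.578 CPM. Distances were 0.375, 0.395 and 0.418 log2 units. The knockout libraries entered the distance, so falls of like size follow from the choice.

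Zfp750 (ENSMUSG00000039238.7) moved the opposite way. It stood at 177, 193 and 182 CPM in wild type and at 241, 285 and 292 CPM in knockout. Every knockout library lay above every wild-type library, with knockout replicate 1 the lowest of the 3. The level was 148% of wild type (log2 fold change 0.57 ± 0.09, 95% interval 0.37 to 0.77, edgeR adjusted p = 0.00149).

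Many genes of the wider list of 2-cell stage genes were at the detection limit. Of 41 listed genes found, 20 had fewer than 10 counts in every library, 8 of them with no count at all, and 15 were tested. A count of 0 allows up to 3 counts, or 0.0744 to 0.0924 CPM, for counting error only. Named here after their values were seen, the 2-cell regulator Duxf3 (Dux) had 2 counts, all in knockout replicate 3, Zscan4f had at most 1 count in any library, and Zfp352 had 3 to 6. Zscan4c and Zscan4d, also named after their values were seen and known to guard telomeres in embryonic stem cells, were above the limit at 20 to 50 and 26 to 119 counts and did not pass. Many of these genes have near-identical copies, whose reads may not be assigned to a gene.

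In that list 4 genes were higher, 3 lower and 8 not passing (median log2 fold change 0.27 over the 15). Called genes were 46.7% of those tested in the list, against 33.4% of all genes tested (14.9% higher and 18.5% lower). Zfp750, Tcstv1 and Tcstv3, which were chosen with earlier results known, are among the 7 called. The share called therefore cannot show whether this list changed more often than other genes. Sp110, a nuclear body protein, rose from 66.6 ± 3.33 to 87.5 ± 2.23 CPM (log2 fold change 0.39 ± 0.08, edgeR adjusted p = 0.00508). The rises of Ddit4l and Usp17lc were from low levels: Usp17lc had 5, 2 and 3 counts in wild type and 81, 23 and 19 in knockout, and it passed the filter only through the knockout libraries. The median was above 0 although Tcstv1 and Tcstv3 fell. Kdm5b, a histone demethylase gene, was the other that fell.

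Dppa2 (ENSMUSG00000072419.6) and Dppa4 (ENSMUSG00000058550.16), neighbours on the chromosome in RefSeq's GRCm38.p6 annotation, changed in opposite directions. Dppa2 stood at 50.1, 48.4 and 50.6 CPM in wild type and at 80.5, 73.7 and 80.5 CPM in knockout. Both groups were tight and lay apart. Its level was 157% of wild type (log2 fold change 0.65 ± 0.08, 95% interval 0.47 to 0.84, edgeR adjusted p = 0.000458).

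Dppa4 had 8.17, 11.6 and 11.2 CPM in wild type and 3.18, 4.61 and 6.24 CPM in knockout. The groups did not overlap, but the spread was wide, at 18.1% of the mean in wild type and 32.7% in knockout. Its log2 fold change was -1.14 ± 0.26 (95% interval -1.73 to -0.55, edgeR adjusted p = 0.00989). The count of Dppa2 over that of Dppa4 was 6.13, 4.18 and 4.51 in wild-type replicates 1, 2 and 3 and 25.3, 16.0 and 12.9 in knockout replicates 1, 2 and 3 (exact two-sided permutation p = 0.1, the smallest possible). The ratio was higher in every knockout library than in any wild-type library.

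**Figure D2:**
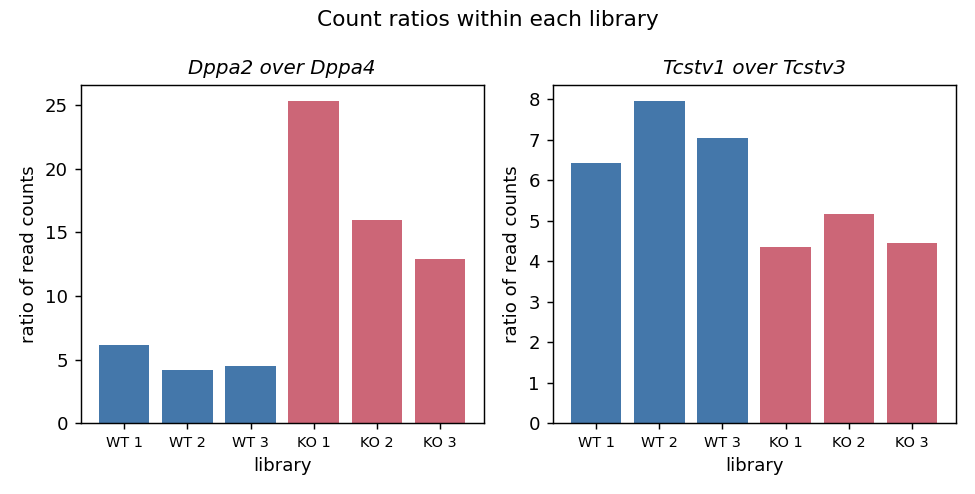
Read counts of Dppa2 over Dppa4 (left) and of Tcstv1 over Tcstv3 (right) within each of 3 wild-type (WT, blue) and 3 Zar1 knockout (KO, red) libraries. The Dppa2 to Dppa4 ratio is 12.9 to 25.3 in knockout against 4.18 to 6.13 in wild type, and the Tcstv1 to Tcstv3 ratio is lower in all 3 knockout libraries.

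Near Dppa2 in profile were Entr1, Elob, an elongin subunit, and Zfp512b, at distances of 0.0933, 0.103 and 0.108 log2 units. Elob went from 8.98 ± 0.183 to 14.3 ± 0.146 CPM. Rises of like size follow from this choice as well.

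Activators of the 2-cell and zygotic programme changed both ways. Among 22 tested, Dppa2 and Dppa4 included, 3 were higher, 8 lower and 11 did not pass (median log2 fold change -0.09). Called members were 50% of those tested, against 33.4% of all genes tested (14.9% higher and 18.5% lower). Trim24, a chromatin reader, fell from 180 ± 9.73 to 96.8 ± 8.44 CPM (log2 fold change -0.90 ± 0.09) and Nfya, the DNA-binding subunit of the CCAAT factor, from 557 ± 33.0 to 384 ± 14.3 CPM (-0.54 ± 0.07). The orphan nuclear receptor gene Nr5a2 rose from 51.8 ± 3.17 to 77.9 ± 5.50 CPM, a rise of 0.59 ± 0.09 on the log2 scale. The level of Dppa3 (Stella), a maternal-effect gene, was 1426 ± 35.5 CPM in wild-type and 1526 ± 153 CPM in knockout oocytes (log2 fold change 0.10 ± 0.08, edgeR adjusted p = 0.382).

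Genes known to hold the 2-cell programme down in embryonic stem cells changed both ways, with 6 of 38 tested members higher, 12 lower and 20 not passing (median -0.02). The share called was 47.4%, against 33.4% of all genes tested (14.9% higher and 18.5% lower). Rnf2, the ubiquitin ligase of Polycomb complex PRC1, fell from 148 ± 4.73 to 66.2 ± 4.63 CPM (log2 fold change -1.16 ± 0.08) and Dicer1 from 814 ± 62.8 to 329 ± 7.61 CPM. L3mbtl2, a subunit of a variant PRC1, rose from 49.8 ± 2.86 to 75.6 ± 4.70 CPM and the SUMO ligase gene Pias4 from 32.4 ± 4.74 to 57.9 ± 5.63 CPM (log2 fold change 0.84, or 0.56 after a correction for GC content and transcript length). Lin28a is itself in this list and among the 12 that fell. Zfp281 (named after its values were seen) is in this list and in that of the activators, and its fall is counted in both.

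Pou5f1 (ENSMUSG00000024406.17) was the least abundant of the 9 in wild type. It stood at 5.94, 6.35 and 6.04 CPM in wild type and at 6.56, 7.49 and 6.57 CPM in knockout. The knockout values lay just above the wild-type values without overlap, yet the difference did not pass (log2 fold change 0.17 ± 0.16, 95% interval -0.20 to 0.54, edgeR adjusted p = 0.465). After a correction for GC content and transcript length the value was -0.016. Fkbpl, Ddx31 and Mthfd2 had the profiles nearest to Pou5f1, at distances of 0.0477 to 0.0648 log2 units. None of them passed the test. The knockout libraries entered the distance, so small fold changes follow from the choice.

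Of 15 POU genes, 8 were tested, with 1 higher, 2 lower and 5 not passing (37.5% called, against 33.4% of all genes tested). Pou2f1 (OCT1), a widely expressed relative, fell from 63.4 ± 2.57 to 28.01 ± 2.91 CPM (log2 fold change -1.18 ± 0.10, edgeR adjusted p = 7.47e-05). Pou2f3 fell from 2.92 ± 0.265 to 0.894 ± 0.527 CPM and Pou6f1 rose from 0.499 ± 0.133 to 1.94 ± 0.623 CPM. Pou5f2 had 1 to 28 counts per library, the 28 in knockout replicate 3, and was not tested.

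Sall4 (ENSMUSG00000027547.18) was the most abundant of the 9 in CPM and had the smallest fold change of them. It stood at 2489, 2915 and 2712 CPM in wild type and 2628, 2602 and 2937 CPM in knockout, ranking 20 and 18 among all tested mRNAs. The groups overlapped throughout (log2 fold change 0.0092 ± 0.079, edgeR adjusted p = 0.942), and the 95% interval of -0.17 to 0.19 bounds the difference. Its relative Sall2, at 26.7 ± 2.59 CPM in wild-type and 18.5 ± 7.46 CPM in knockout oocytes, did not pass (log2 fold change -0.53, edgeR adjusted p = 0.149). Sall2 passed with no filter on low counts (-0.54, edgeR adjusted p = 0.0141) and without knockout replicate 3 (-0.87, edgeR adjusted p = 0.0128), and was at -0.26 without knockout replicate 2. Sall1 had no count in any library. Sall3 had 1 to 43 counts and did not pass either.

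SALL4 acts with the NuRD chromatin complex. In the SALL and NuRD list 17 genes were tested: 5 were higher, 2 lower and 10 not passing (median log2 fold change 0.19). Calls were made for 41.2% of them, against 33.4% of all genes tested. The subunit genes of the methyl-CpG-binding domain family rose. Mbd3 went from 13.3 ± 2.02 to 26.0 ± 2.39 CPM (log2 fold change 0.97 ± 0.15, or 0.61 after the GC and length correction). Mbd2 went from 22.5 ± 1.40 to 35.1 ± 4.01 CPM (0.64 ± 0.12). Cdk2ap1 rose from 8.40 ± 0.491 to 14.6 ± 1.93 CPM. Gatad2b, a scaffold subunit, fell from 144 ± 9.92 to 94.3 ± 17.7 CPM, and Mta2, from 1.21 ± 0.151 to 0.483 ± 0.232 CPM, was the other that fell (named to complete the count). Without wild-type replicate 1, 2 or 3, or without knockout replicate 2, only 1 member fell.

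Lin28a (ENSMUSG00000050966.10) fell in all knockout libraries. It stood at 84.8, 81.5 and 79.4 CPM in wild type and at 57.7, 44.7 and 53.5 CPM in knockout. The groups lay well apart and the knockout spread was the wider, 12.8% of the mean against 3.27%. The level dropped to 63.5% of wild type (log2 fold change -0.66 ± 0.11, 95% interval -0.89 to -0.42, edgeR adjusted p = 0.00175). Its paralog Lin28b also fell, from 30.9 ± 1.20 to 19.8 ± 1.42 CPM (-0.64 ± 0.11, edgeR adjusted p = 0.00233; -0.41 after the GC and length correction).

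Around LIN28, 24 genes of the let-7 axis were tested, of which 3 were higher, 8 lower and 13 not passing (median log2 fold change -0.17). Thus 45.8% were called, against 33.4% of all genes tested. Hmga2, a chromatin protein whose mRNA is a classic let-7 target, rose from 65.5 ± 3.00 to 136 ± 16.1 CPM (log2 fold change 1.05 ± 0.10, edgeR adjusted p = 0.000117). Another let-7 target, the receptor gene Tgfbr1, fell from 18.2 ± 4.33 to 4.403 ± 1.48 CPM (-2.05 ± 0.28). Ddx17, a helicase of the Drosha complex, fell from 52.5 ± 2.71 to 20.1 ± 1.40 CPM (-1.38 ± 0.10). After the correction for GC content and length, 5 genes of this list rose.

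Of the wider list of pluripotency factors 24 of 40 genes were tested, with 5 higher, 6 lower and 13 not passing (median -0.07). The share called was 45.8% of those tested, against 33.4% of all genes tested. In this list 12 genes had fewer than 10 counts in every library. Nanog had at most 3 counts in a library, and Zfp42 had 5, 7 and 10 counts in wild type and none in knockout (both named after their values were seen). Gbx2, a homeobox gene, rose from 613 ± 5.41 to 809 ± 15.1 CPM (log2 fold change 0.40 ± 0.06, edgeR adjusted p = 0.00108), a call lost after the GC and length correction (0.15, edgeR adjusted p = 0.0818). Dppa5a rose from 41.6 ± 2.67 to 72.8 ± 14.4 CPM (0.81 ± 0.14). Dppa5a is known to have pseudogene copies, so its count is uncertain.

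Tcl1 (ENSMUSG00000041359.15) was close to the threshold. It stood at 999, 1149 and 1109.6 CPM in wild type and at 1165, 1264 and 1495 CPM in knockout. Knockout replicate 1 lay just above the highest wild-type library and knockout replicate 3 well above it. The log2 fold change of 0.27 ± 0.10 did not pass (95% interval 0.045 to 0.49, edgeR adjusted p = 0.0661). It passed in 4 of 20 alternatives. These were without knockout replicate 1 (log2 fold change 0.36, edgeR adjusted p = 0.034), under upper-quartile factors (0.32, 0.0374), with no filter on low counts (0.25, 0.0236) and with the replicate number as a block (0.26, 0.0456). In the other 16 it did not pass, among them without knockout replicate 3 (0.16, edgeR adjusted p = 0.128), without wild-type replicate 1 (0.20, 0.217) and after the GC and length correction (0.21, 0.156).

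The Tcl1b genes, which lie beside Tcl1 and encode related proteins, split. Tcl1b1, with 1618 ± 37.7 CPM in wild type, fell to 1064 ± 147 (log2 fold change -0.60 ± 0.10, edgeR adjusted p = 0.00168), and Tcl1b5 fell from 81.9 ± 4.65 to 54.7 ± 7.11 CPM (-0.58 ± 0.11). Tcl1b2 rose from 1374 ± 73.9 to 1689 ± 126 CPM (0.30 ± 0.08, edgeR adjusted p = 0.0159) and Tcl1b4 from 311 ± 1.67 to 403 ± 24.5 CPM (0.37 ± 0.07). The rise of Tcl1b2 did not pass without wild-type replicate 2 (0.30, edgeR adjusted p = 0.0507) or 3 (0.25, edgeR adjusted p = 0.0874). Tcl1b3, at 684 ± 42.1 CPM in wild-type and 659 ± 60.9 CPM in knockout oocytes, did not pass. Similarity among the Tcl1b copies makes the split of reads between them uncertain. Mtcp1, the more distant relative, had 6 to 29 counts and did not pass (log2 fold change 1.38, edgeR adjusted p = 0.0963), but passed without knockout replicate 1 (1.77, edgeR adjusted p = 0.0354).

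Of the 24 genes of the TCL1 family and the AKT pathway, all tested, 6 were higher, 7 lower and 11 not passing (median log2 fold change 0.05). Calls were made for 54.2% of them, against 33.4% of all genes tested. Phlpp2, a phosphatase of AKT, fell from 35.0 ± 0.151 to 12.8 ± 2.54 CPM (log2 fold change -1.45 ± 0.15). Foxo1, a transcription factor that AKT inhibits, fell from 396 ± 5.82 to 251 ± 30.4 CPM, and Mlst8, a subunit of the mTOR complexes, from 5.30 ± 1.14 to 1.503 ± 0.202 CPM.

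**Figure D3:**
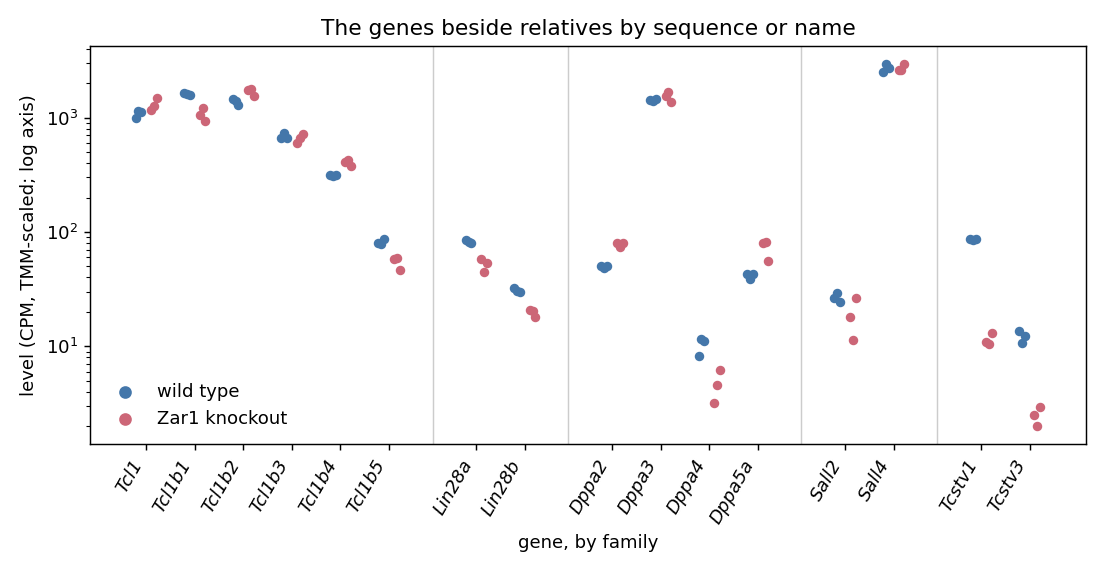
Levels in CPM (TMM-scaled, log axis) of the TCL1, LIN28, DPPA, SALL and Tcstv genes in 3 wild-type (blue) and 3 Zar1 knockout (red) libraries, 1 point per library. Lin28a and Lin28b are both lower in every knockout library, while Dppa2 and Dppa4, and Tcl1b1 and Tcl1b2, separate in opposite directions.

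Summed, the 9 genes took 0.402%, 0.449% and 0.429% of gene counts in wild-type replicates 1, 2 and 3 and 0.418%, 0.4218% and 0.479% in knockout replicates 1, 2 and 3 (exact two-sided permutation p = 0.7). The groups overlapped, and most of the sum was Sall4 and Tcl1. The other 7 genes took 0.0435 ± 0.000295% in wild type and 0.0422 ± 0.00227% in knockout (exact two-sided permutation p = 0.4). These groups overlapped as well.

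**Figure D4:**
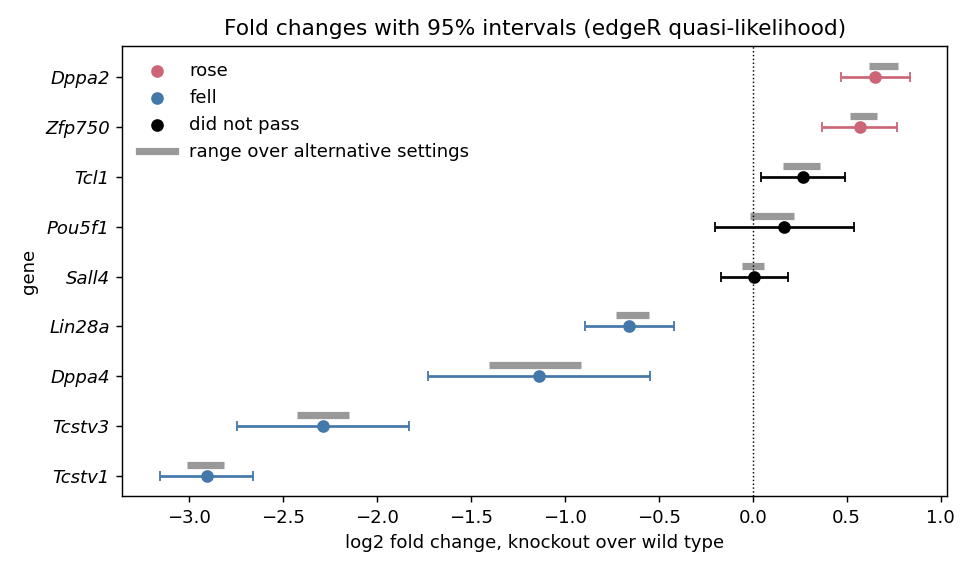
Log2 fold change of each gene (knockout over wild type, points) with its 95% interval (bars) from edgeR's quasi-likelihood test on 3 against 3 libraries, coloured by call, and the range over alternative settings (grey). The values run from -2.91 for Tcstv1 to 0.65 for Dppa2, and the intervals of Pou5f1 and Sall4 include 0.

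The 6 calls rest on changes of different size. When a change beyond 1.5-fold was required by the test, only Tcstv1 and Tcstv3 were called (edgeR adjusted p = 8.08e-06 and 0.000325), and Dppa4 (0.0868), Dppa2 (0.369), Lin28a (0.439) and Zfp750 (0.874) were not.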

How the data were processed

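The deposited files hold whole-number read counts for each gene of a library, not normalized by the authors. HTSeq 0.13.5, STAR 2.7.8a, cutadapt 2.8 and bcl2fastq 2.20.0.422, with build mm39, are the tools listed per the submitters' processing notes. Annotation release and strand setting are not given in the sources used, so overlapping and antisense genes are uncertain. Groups and replicate numbers came from the labels, which name no batch. The counting's summary rows were left out of library sizes and tests.

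Gene IDs were matched to symbols without their version (52093 of 53700). Knockout was compared with wild type by edgeR's quasi-likelihood test (edgeR 4.0.16, R 4.3.3) after filterByExpr and TMM scaling, with no covariate. The test is two-sided, and p-values were adjusted by Benjamini-Hochberg over 16473 genes. Standard errors are the absolute log2 fold change over the square root of F, and intervals use the test's degrees of freedom. The steps were run on simulated counts in which few genes changed, in random directions, while 33.4% of genes were called here. That run cannot test the scaling or the rate of false calls under such wide change. Alternatives included DESeq2 1.42.0 and limma-voom (limma 3.58.1). Single ratios and shares used exact permutation tests (scipy 1.17.1). Depth was 32126555 to 39148833 gene counts, at which 10 counts are 0.248 to 0.308 CPM. Pairs of libraries of the same genotype differed by far more than counting noise (chi-square over its degrees of freedom 12.8 to 39.9), so none was counted as a duplicate.

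Exon lengths, GC content, 3' UTRs and shared sequence came from GENCODE M21 (GRCm38). This build differs from mm39, so no coordinates are printed. The 9 genes and the 8 gene lists were chosen with earlier results of these data known. Genes named are the 9, Zar1, at most 4 called genes per list (lowest adjusted p first), relatives of the 9, and the 3 nearest profiles to each of Tcstv1, Dppa2 and Pou5f1 (log2 of CPM + 0.1). Others are marked as named after their values were seen, or complete a count. A gene that this rule names is not reported here.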

Additional observations from a re-analysis of the deposited data

How the results depend on the processing

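Each fold change was recomputed under up to 20 alternatives to scaling, filter, tool, threshold, block, GC and length, copies and libraries. The falls of Tcstv1 (-3.01 to -2.81) and Tcstv3 (-2.43 to -2.15) kept their call in all that apply. Those of Dppa4 and Lin28a and the rises of Dppa2 and Zfp750 lost it in 1, the test against a 1.5-fold change, under which 0 of the 9 genes rose and 2 fell. The sign of Sall4, never past the threshold, turned with no scaling factors (-0.026), no filter (-0.0054), the GC and length correction (-0.029) and with libraries left out (-0.055 to 0.061), Pou5f1 turned with that correction (-0.016), and Tcl1b3 turned without knockout replicate 1 (range -0.12 to 0.027 over the left-out libraries). The summed share, knockout minus wild type, was 0.0129 percentage points and turned to -0.0069 without knockout replicate 3, with a highest value of 0.0238 over the left-out libraries. With the replicate number as a block 3 genes rose and 4 fell, but deviations of same-numbered libraries did not correlate (r = -0.0090, -0.042 and -0.025), no library correlated best with its own number, and the libraries share only a number. The cause of these shifts was not tested. Depth limits what can be said of Duxf3, Zscan4f, Zfp352 and Nanog, which lie at or below 10 counts.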
